A study of Mus musculus with 36 samples.

Results

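The CC chemokines described here are Ccl2, Ccl3, Ccl4, Ccl5, Ccl6, Ccl7, Ccl9, Ccl12 and Ccl19, listed by name and followed in every organ in which their probes had values. Of the 9 listed genes, 5 (Ccl2, Ccl5, Ccl6, Ccl9 and Ccl12) had a probe, out of 12394 genes with a probe in all. No probe was matched to Ccl3, Ccl4, Ccl7 or Ccl19, which were not analysed here. Each of the 5 genes had 1 probe, so no choice between probes was needed. Values existed for Ccl2 in heart, Ccl5 in kidney and liver, Ccl6 in heart and liver, Ccl9 in all 4 organs and Ccl12 in brain and heart, which gives 11 gene and organ pairs. In the other 9 combinations of these 5 genes and 4 organs the value was blank on all 9 arrays of the organ. The filter behind the blanks is not stated, so a gene that is low in mock may have kept its values because it was high in another group, and counts over the 11 pairs are descriptions only.

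The arrays held RNA of female FVB mice aged 6 to 8 weeks that carried a luciferase transgene for imaging in life. Mock mice had no treatment, LPS mice received bacterial lipopolysaccharide into the peritoneal cavity at 4 mg/kg, and LPS+genipin mice received the same LPS and then, 10 min later, genipin, a small molecule from gardenia fruit. Brain, heart, kidney and liver were taken 4 h later, and 3 arrays were made for each of the 12 combinations of organ and treatment. All groups, mock included, carried the transgene. The sources used here give neither the promoter that drives it nor the genipin dose of the arrayed mice (the series lists 1, 10 and 100 mg/kg). Nothing in them ties the 3 arrays of a group to separate mice, and the p-values below therefore measure only the spread between arrays, which may be technical. No group received genipin without LPS.

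CC chemokines are small secreted proteins, named for a pair of neighbouring cysteines, that form gradients and draw leukocytes bearing the matching G protein-coupled receptor out of the blood and through tissue. LPS, sensed by Tlr4 with Md-2 and Cd14, switches on many of their genes within hours through NF-kB, AP-1 and interferon regulatory factors, in macrophages and also in endothelial, epithelial and stromal cells. Ccl2 and Ccl12 act on Ccr2 and draw monocytes, Ccl5 draws T cells, monocytes and eosinophils, and Ccl6 and Ccl9 are Ccr1 ligands with long N-termini that proteases trim.

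Except for Ccl19, all the listed genes lie on chromosome 11. The order of the CC chemokine genes there is Ccl2, Ccl7, Ccl11, Ccl12, Ccl8, Ccl1, Ccl5, Ccl16-ps, Ccl9, Ccl6, Ccl3 and Ccl4 in the RefSeq gene table (GRCm38.p6). Ccl19 lies on chromosome 4. Promoter sequences are shown for 3 of the 5 genes with a probe, the 3 with an entry in the RefSeq table, because Ccl9 and Ccl6 are neighbours with unlike changes and because Ccl12 is the member with unlike arrays. Each is the 250 bases before the annotated start in the C57BL/6J reference, 5′ to 3′ on the gene's strand, and not a sequence of the FVB mice. Capitals mark TATAAA in Ccl12 and Ccl9, and also the match to the NF-kB binding consensus in Ccl9. The intervals are chr11:82101595-82101844 on the plus strand for Ccl12, chr11:83578637-83578886 on the minus strand for Ccl9 and chr11:83593088-83593337 on the minus strand for Ccl6.
Ccl12: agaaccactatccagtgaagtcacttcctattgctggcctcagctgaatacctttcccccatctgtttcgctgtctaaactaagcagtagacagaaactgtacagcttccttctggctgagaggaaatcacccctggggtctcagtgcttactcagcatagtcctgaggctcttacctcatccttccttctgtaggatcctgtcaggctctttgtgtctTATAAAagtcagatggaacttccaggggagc
Ccl9: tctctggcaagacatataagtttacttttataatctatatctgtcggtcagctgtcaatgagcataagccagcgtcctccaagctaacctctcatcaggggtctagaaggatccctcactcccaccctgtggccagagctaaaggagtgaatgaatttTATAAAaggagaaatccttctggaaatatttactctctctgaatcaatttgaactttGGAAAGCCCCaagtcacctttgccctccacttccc
Ccl6: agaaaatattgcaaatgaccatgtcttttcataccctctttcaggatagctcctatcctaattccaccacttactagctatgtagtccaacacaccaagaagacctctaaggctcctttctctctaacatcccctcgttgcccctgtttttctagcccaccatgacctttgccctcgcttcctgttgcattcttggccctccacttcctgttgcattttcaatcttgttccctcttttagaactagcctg

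In the Ccl9 window the NF-kB consensus matched on the opposite strand, from -35 to -26 counted from the start. That consensus was found in 7.25% of 32851 promoter windows of the same length. An AP-1 motif (TGANTCA) lay at -53 to -47 of Ccl9, against 6.75% of windows with one. The C/EBP motif TTNCNNAA matched Ccl9 in 2 places, at -75 to -68 and at -38 to -31, the latter overlapping the NF-kB match; 36.8% of windows held it. TATAAA, read on the gene's own strand, lay at -31 to -26 in Ccl12 and at -92 to -87 in Ccl9, and 7.59% of windows held it. The interferon response element (GAAA and GAAA with NN between) was in 2.98% of windows and in none of these 3. None of the 5 motifs, searched on both strands except for TATAAA, was found in the Ccl6 window. These are matches of letters in short windows and not sites of measured binding.

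Values are the deposited intensities on a linear scale, normalized within each organ, so levels are compared within an organ only and not between genes. Tests used log2 values raised to a floor of 263, the 5th percentile. Where all arrays of a group lie at the floor, a change from it is given as "at least". Such a group adds no spread to the estimate that the groups share. This makes the SE and p-values of that gene smaller, also for LPS+genipin against LPS and between organs. Changes are differences of group means on the log2 scale ± standard error (SE), with n = 3 arrays per group, from limma with Benjamini-Hochberg adjustment over all genes measured in the organ, and the threshold was an adjusted p of 0.05. Correlations between arrays of a group over all genes lay between 0.985 and 0.998. Some marker lists differed between the treatment groups. In brain, 4 of 4 skeletal muscle markers were lower with LPS than in mock, with summed intensities of 112506 to 118985 in mock, 3416 to 3680 with LPS and 3749 to 4086 with LPS+genipin. Choroid plexus markers in brain summed to 66504 to 67144 in mock, 3824 to 4772 with LPS and 69629 to 70455 with LPS+genipin. Of the 4 with values, 2 were lower with LPS than in mock, and 4 were higher with LPS+genipin than with LPS. Folr1 lay at the floor in mock and with LPS. The list's median change for LPS against mock was -0.37, so the sums do not describe each gene. The hepatocyte list, which also holds Ttr, had close sums in brain, at 65354 to 65963 in mock, 3908 to 4946 with LPS and 67200 to 67576 with LPS+genipin. In heart, 2 of 3 adipocyte and 2 of 2 atrial muscle markers were higher with LPS than in either other group. The summed adipocyte markers were 12593 to 17858 in mock, 85686 to 97584 with LPS and 17222 to 24770 with LPS+genipin, and the summed atrial markers were 3983 to 4358, 126373 to 130967 and 3238 to 3322. In each case all 3 arrays of the group showed it, so a difference in the tissue sampled cannot be told apart from an effect of the treatment. The part of these lists in the chemokine values was not tested. Of markers of the labelled organs, 7 of 7 cardiomyocyte, 7 of 7 proximal tubule, 6 of 7 hepatocyte and 4 of 6 neuronal markers had values in heart, kidney, liver and brain.

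Over the 11 gene and organ pairs, LPS raised the transcript in 9 and the other 2 did not pass the test, with a median change of 2.16 against -0.04 over all genes in the 4 organs. For comparison, LPS raised 16.4%, 18.2%, 25.2% and 29.3% of all genes in brain, heart, kidney and liver. LPS+genipin was lower than LPS in 8 pairs, higher in 2 and did not pass in 1, with a median of -1.05 against 0.03. Of all genes, 13.8%, 19.9%, 22.6% and 24.5% were lower in that comparison in brain, heart, kidney and liver, and 22.1% were higher in heart and 32.1% in kidney, the organs of the 2 exceptions. Against mock, LPS+genipin was higher in 9 pairs, lower in 1 (liver Ccl6) and did not pass in 1 (liver Ccl9). These are not the 9 pairs that LPS raised: heart Ccl6 and Ccl12 are among them, and liver Ccl6 and Ccl9 are not. That comparison was higher in 8.87%, 7.54%, 20.2% and 28.5% of genes in those 4 organs and lower in 32.5% in liver. These 11 pairs are 5 genes seen in several organs, not 11 separate genes. The comparison of LPS+genipin with LPS and that of LPS with mock share the LPS arrays. Groups without overlap, named below for single genes, were common among all genes. Arrays of LPS and mock did not overlap for 48.9%, 54.6%, 70.2% and 71.5% of genes in brain, heart, kidney and liver. For LPS+genipin against LPS the shares were 40.2%, 53.3%, 63.0% and 61.7%, and against mock 42.4%, 41.8%, 55.1% and 70.4%.

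**Figure D1:**
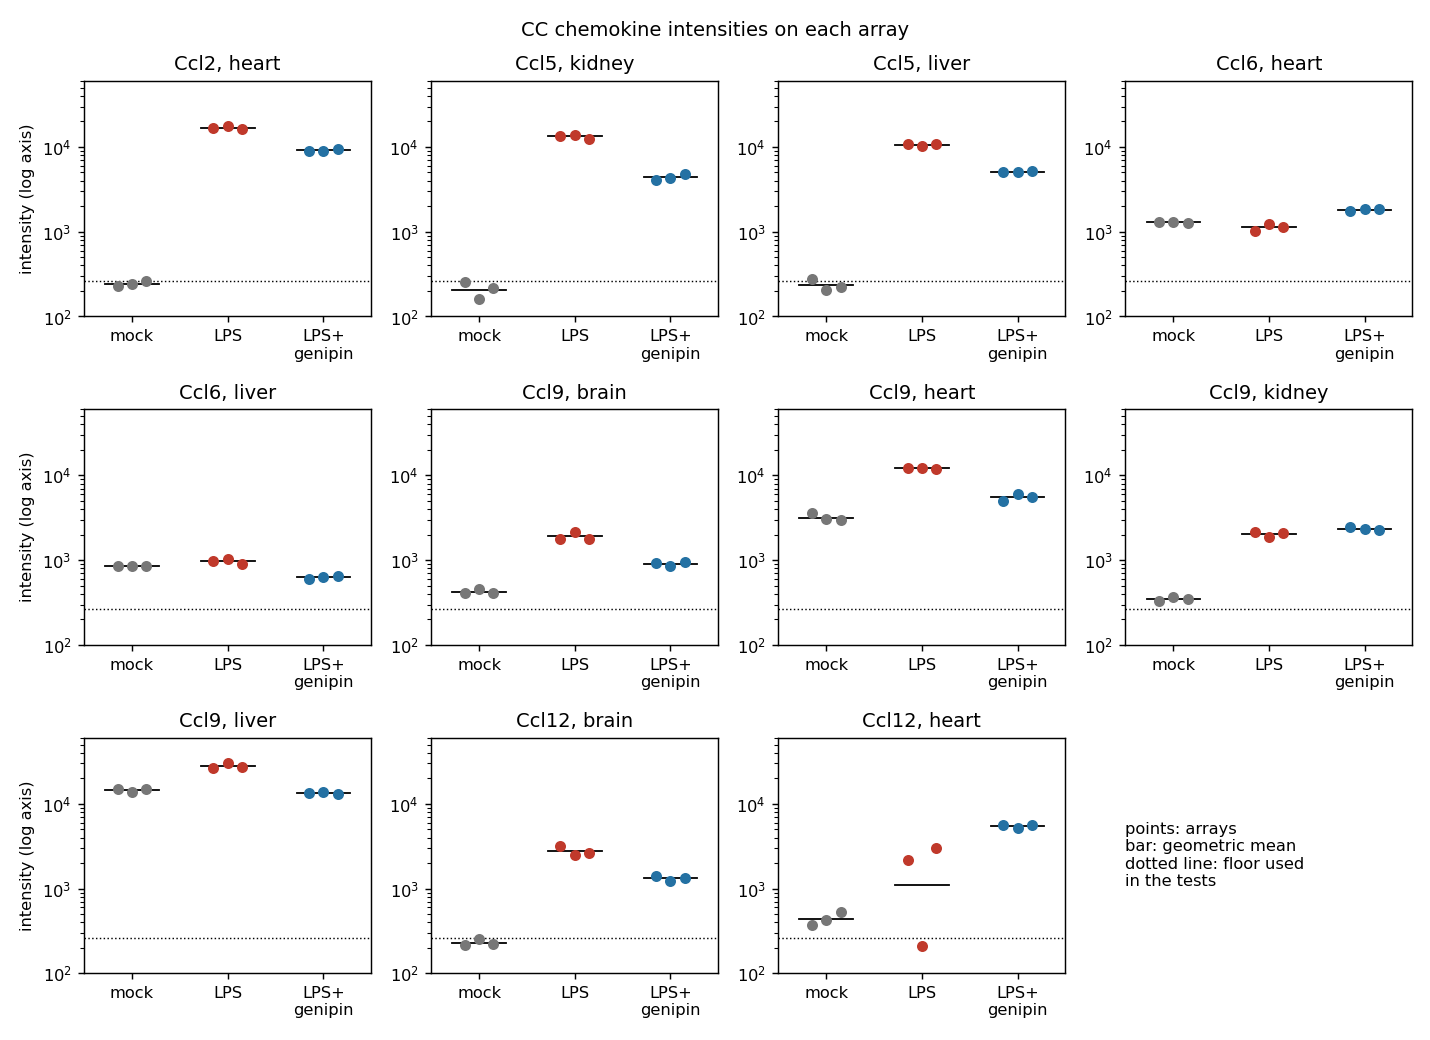
Intensity of each CC chemokine on every array (log axis), one panel per gene and organ, with mock in grey, LPS in red and LPS+genipin in blue. Ccl2, Ccl5 and brain Ccl12 lie at or near the dotted floor in mock, Ccl9 rises in all 4 organs with LPS, and 1 LPS heart array stands apart for Ccl12.

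Ccl2, the main monocyte attractant of the family, was measured in heart and went from below the floor in mock to high levels with LPS. Its intensity was 227, 244 and 259 on the 3 mock arrays, all below the floor. With LPS it was 16682, 17513 and 16293, and with LPS+genipin 8977, 8934 and 9417. The 3 groups did not overlap, with mock lowest, LPS highest and LPS+genipin between them. LPS raised Ccl2 at least 64.0-fold (6.00 ± 0.05, adjusted p = 2.36e-10 in limma). LPS+genipin lay 45.9% below LPS (-0.89 ± 0.05, adjusted p = 6.57e-06 in limma) and still at least 34.7-fold above mock. In an extract of a whole organ, a change in the number of cells that make a transcript and a change in RNA per cell cannot be told apart.

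Of the 4 members measured in heart, 2 passed for LPS against mock, where 47.3% of all heart genes did, and 3 passed for LPS+genipin against LPS, where 42.0% did. For LPS+genipin against mock, 4 of 4 passed, against 19.8% of genes. Neutrophil markers moved in the same order as Ccl2 in heart. All 4 of the listed neutrophil markers with values, among them S100a8 and S100a9, were higher with LPS and lower again with LPS+genipin, and their summed intensity was 3515 to 4100 in mock, 45052 to 49010 with LPS and 18983 to 20181 with LPS+genipin. Monocyte and macrophage markers moved much less. Of 7 with values, 3 were higher and 2 lower with LPS, and their sum was 20725 to 22352 in mock, 18375 to 20010 with LPS and 22126 to 23283 with LPS+genipin, with no marker at the floor in any group. The part of these markers in the Ccl2 result was not tested.

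Ccl5, a chemokine of T cells and monocytes, was measured in kidney and liver and was near or below the floor in the mock arrays of both. In kidney the mock arrays gave 258, 159 and 220. The LPS arrays gave 13641, 13924 and 12423, and the LPS+genipin arrays 4120, 4268 and 4804. The groups were far apart and none of their arrays overlapped. LPS raised renal Ccl5 at least 50.7-fold (5.66 ± 0.07, adjusted p = 4.21e-10 in limma). LPS+genipin was 67.0% lower than LPS (-1.60 ± 0.07, adjusted p = 1.50e-06 in limma), the deepest reduction of any member in any organ, and remained at least 16.7-fold above mock.

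In liver Ccl5 gave 281, 203 and 222 in mock, of which 1 lay above the floor. It gave 10742, 10315 and 10845 with LPS and 5084, 5111 and 5191 with LPS+genipin. Again mock was lowest and LPS highest, with no overlap. The LPS change was 5.31 ± 0.05 (39.6-fold, adjusted p = 1.60e-10 in limma). With 2 of 3 mock arrays raised to the floor, that fold understates the change in the deposited values. LPS+genipin was 51.8% lower than LPS (-1.05 ± 0.05, adjusted p = 1.52e-06 in limma) and, with the same limit, 19.1-fold above mock. The reduction with genipin was larger in kidney than in liver by 0.55 ± 0.09 on the log2 scale, which is a kidney minus liver difference of -0.55 (adjusted p = 0.000199 in limma over the genes measured in both). The kidney mock arrays, all at the floor, add no spread to this test, so its SE and p-value are made smaller. This test and those between organs below take the arrays of different organs as independent. The rises with LPS are not ordered here, since 3 of 3 mock arrays in kidney and 2 of 3 in liver lay at the floor.

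T cells and natural killer cells could not be followed in these 2 organs. None of 8 T cell markers had values there, and of 7 natural killer cell markers 1, Gzma, had values in liver, at the floor in mock. Monocyte and macrophage markers did have values, with sums given below. For LPS+genipin against LPS, 4 of 6 were higher and 2 lower in kidney, and 4 of 7 were higher and 1 lower in liver. Of all genes in that comparison, 32.1% were higher and 22.6% lower in kidney, and 29.5% were higher and 24.5% lower in liver. Neutrophil markers with values were 2 of 10 in kidney and 3 of 10 in liver. In kidney both were higher with LPS and neither passed for LPS+genipin against LPS, with sums of 780 to 918 in mock, 6211 to 8110 with LPS and 5923 to 6167 with LPS+genipin. In liver all 3 were higher with LPS and lower with LPS+genipin, with sums of 4112 to 4374, 87965 to 92271 and 61776 to 66492. The part of these marker lists in the Ccl5 result was not tested.

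Ccl12, a Ccr2 ligand found in mouse and closely related to Ccl2, was measured in brain and heart, and its change with genipin differed between them. In brain the mock arrays gave 216, 256 and 222, all below the floor. With LPS they gave 3156, 2519 and 2608, and with LPS+genipin 1423, 1224 and 1349. The 3 brain groups were cleanly ordered, LPS above LPS+genipin above mock. LPS raised brain Ccl12 at least 10.5-fold (3.39 ± 0.09, adjusted p = 1.76e-07 in limma). LPS+genipin was 51.6% lower than LPS (-1.05 ± 0.09, adjusted p = 0.000177 in limma) and at least 5.06-fold above mock.

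In heart Ccl12 gave 370, 433 and 525 in mock and 5632, 5233 and 5614 with LPS+genipin. The LPS arrays disagreed, at 2152, 212 and 3052, so that replicate 2 lay below every mock array while the other 2 lay above. The LPS+genipin arrays were above all LPS and all mock arrays. LPS against mock was 1.45 ± 0.79 (adjusted p = 0.164 in limma), and LPS+genipin against LPS was 2.19 ± 0.79 (adjusted p = 0.0546), the highest change of 9518 genes but not past the threshold. Without LPS replicate 2 the rise with LPS was 5.85-fold (2.55 ± 0.18, adjusted p = 6.41e-05 in limma), and LPS+genipin was 2.14-fold above LPS (1.10 ± 0.18, adjusted p = 0.00391). Without LPS replicate 3 instead, the difference between LPS+genipin and LPS was 2.87 ± 0.75 (adjusted p = 0.0205 in limma). LPS+genipin was 12.5-fold above mock (3.65 ± 0.79, adjusted p = 0.0149 in limma), a fold that uses no LPS array but an SE that shares their spread. Without LPS replicate 2 that SE was 0.16 and the adjusted p in limma was 2.67e-05. Over all genes, LPS replicate 2 correlated with the other LPS hearts at 0.986 to 0.993, inside the range of the other arrays. Ccl12 was among 2 genes of 9518 that lay at least that far from the mean of the other 2 LPS hearts.

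The change from LPS to LPS+genipin in Ccl12 differed between brain and heart by 3.24 ± 0.79 on the log2 scale, brain minus heart being -3.24 (adjusted p = 0.0034 in limma over the genes measured in both). Without LPS heart replicate 2 the difference was smaller, at -2.15 ± 0.20 (adjusted p = 4.20e-07 in limma). With 2 organs the F test is this same test, adjusted over all genes measured in 2 or more organs. Its adjusted p was 0.00188 in limma with all arrays and 1.80e-07 without LPS heart replicate 2. Ccl2, its relative with the same receptor, was 45.9% lower with LPS+genipin in the same hearts, where the 3 arrays of each group agreed. For the LPS change the difference between brain and heart was 1.93 ± 0.79 (adjusted p = 0.0571 in limma for the pair, 0.0377 in the F test). The brain value is a bound. Without LPS heart replicate 2 the difference was 0.84 ± 0.20 (adjusted p = 0.00295 in limma for the pair).

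In brain, 2 of 2 measured members passed in all 3 comparisons, against 33.9% of genes for LPS against mock, 30.1% for LPS+genipin against LPS and 14.4% for LPS+genipin against mock. Microglial markers went the other way, with 6 of 6 lower with LPS and 3 of 6 higher with LPS+genipin than with LPS. Their summed intensity was 12867 to 13333 in mock, 5622 to 6047 with LPS and 9128 to 9273 with LPS+genipin. The 6 monocyte and macrophage markers with values summed to 15414 to 16681, 11091 to 13404 and 16424 to 17388, and the 5 neutrophil markers to 2288 to 2358, 3984 to 4833 and 4700 to 4813. No marker of the 3 lists was at the floor in brain. Thus brain Ccl12 and Ccl9 were higher with LPS on arrays where the summed microglial and macrophage markers were lower, and the part of these markers was not tested.

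Ccl9, a Ccr1 ligand that draws monocytes, dendritic cells and osteoclast precursors, was the only member with values in all 4 organs, and LPS raised it in each. In brain it gave 409, 458 and 412 in mock, 1789, 2170 and 1790 with LPS, and 916, 862 and 948 with LPS+genipin. The groups did not overlap, and LPS+genipin stood between mock and LPS. Brain Ccl9 rose 4.48-fold with LPS (2.16 ± 0.09, adjusted p = 1.68e-06 in limma) and was 52.4% lower with LPS+genipin than with LPS (-1.07 ± 0.09, adjusted p = 0.000131), leaving it 2.13-fold above mock.

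In heart Ccl9 gave 3629, 3022 and 2957 in mock, 12389, 12379 and 12015 with LPS, and 5037, 5982 and 5622 with LPS+genipin. The order was that of brain, again without overlap. Cardiac Ccl9 rose 3.84-fold with LPS (1.94 ± 0.09, adjusted p = 1.30e-06 in limma) and was 54.9% lower with LPS+genipin (-1.15 ± 0.09, adjusted p = 4.64e-05), which left it 1.74-fold above mock (0.79 ± 0.09, adjusted p = 0.00100).

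Kidney differed. There Ccl9 gave 334, 366 and 353 in mock, 2155, 1884 and 2121 with LPS, and 2475, 2353 and 2268 with LPS+genipin. The LPS+genipin arrays were the highest, by a narrow margin over LPS. Renal Ccl9 rose 5.84-fold with LPS (2.55 ± 0.06, adjusted p = 2.21e-08 in limma), the largest rise of Ccl9 in any organ. LPS+genipin was 1.15-fold above LPS (0.21 ± 0.06, adjusted p = 0.0260 in limma). That small difference lost the threshold without LPS replicate 2 (0.15 ± 0.06, adjusted p = 0.0706 in limma), without LPS+genipin replicate 1 (0.17 ± 0.07, adjusted p = 0.0839) and without LPS+genipin replicate 2 (0.21 ± 0.08, adjusted p = 0.0581). Against mock, LPS+genipin was 6.74-fold higher. Both measured members thus passed in all 3 kidney comparisons, where 64.4%, 54.8% and 44.5% of genes did, and both Ccl5 and Ccl9 were high with LPS while only Ccl5 was lower with genipin. The 6 monocyte and macrophage markers with values in kidney summed to 10868 to 11417 in mock, 11863 to 12003 with LPS and 15040 to 15806 with LPS+genipin, with 4 of 6 higher and 2 lower for LPS+genipin against LPS and none at the floor. Adipocyte markers in kidney also rose from 38989 to 43032 with LPS to 57241 to 63977 with LPS+genipin, summed over 4 genes of which 3 passed as higher. Fibroblast and pericyte markers summed to 35724 to 36171 with LPS and 57230 to 58118 with LPS+genipin, with 6 of 8 higher and 0 lower. Both skeletal muscle markers with values were higher too, with sums of 943 to 1049 and 3691 to 3881. Of all kidney genes, 32.1% were higher and 22.6% lower with LPS+genipin than with LPS. The part of these lists in the kidney values was not tested.

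In liver Ccl9 gave 14968, 13862 and 14842 in mock, 26194, 30001 and 27546 with LPS, and 13364, 13802 and 13050 with LPS+genipin. LPS was highest, and the LPS+genipin arrays lay just under the mock arrays. Hepatic Ccl9 rose 1.92-fold with LPS (0.94 ± 0.06, adjusted p = 4.59e-06 in limma) and was 51.9% lower with LPS+genipin than with LPS (-1.06 ± 0.06, adjusted p = 7.44e-06). LPS+genipin against mock was -0.12 ± 0.06 (adjusted p = 0.132 in limma), the only one of the 11 pairs that did not pass in that comparison.

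The rise of Ccl9 with LPS differed among organs (F test, adjusted p = 7.73e-12 in limma, a test that 72.5% of 10007 genes measured in 2 or more organs passed). It was largest in kidney, then brain, heart and liver. Brain and heart did not differ by the test (brain minus heart 0.22 ± 0.12, 95% confidence interval -0.02 to 0.46, adjusted p = 0.126 in limma), and each other pair did, with kidney 1.61 ± 0.12 above liver and 0.38 ± 0.12 above brain. The change from LPS to LPS+genipin also differed among organs (adjusted p = 5.13e-11 in limma, against 69.9% of genes). Kidney stood apart from brain by 1.28 ± 0.12, from heart by 1.35 ± 0.12 and from liver by 1.26 ± 0.12, higher in kidney each time. Among the other 3 organs no pair differed by the test. The 95% confidence intervals were -0.16 to 0.32 for brain minus heart, -0.25 to 0.22 for brain minus liver and -0.33 to 0.15 for heart minus liver, so differences of that size remain possible.

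Ccl6, the chromosomal neighbour of Ccl9 and also a Ccr1 ligand, moved little with LPS. In heart it gave 1318, 1317 and 1251 in mock, 1029, 1234 and 1130 with LPS, and 1774, 1854 and 1840 with LPS+genipin. The LPS arrays lay just under mock and the LPS+genipin arrays above both. LPS against mock was -0.20 ± 0.07 (adjusted p = 0.0506 in limma), which did not pass with all arrays and passed without LPS replicate 2 (-0.26 ± 0.06, adjusted p = 0.0149). LPS+genipin was 1.62-fold above LPS (0.69 ± 0.07, adjusted p = 0.000161 in limma) and 1.41-fold above mock (0.49 ± 0.07, adjusted p = 0.00264).

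In liver Ccl6 gave 861, 850 and 854 in mock, 978, 1047 and 909 with LPS, and 598, 638 and 643 with LPS+genipin. LPS was slightly the highest and LPS+genipin clearly the lowest, without overlap. Hepatic Ccl6 rose 1.14-fold with LPS (0.19 ± 0.06, adjusted p = 0.0224 in limma), a call that was lost when any mock array or LPS replicate 2 was left out (adjusted p from 0.0516 to 0.0617). LPS+genipin was 35.9% below LPS (-0.64 ± 0.06, adjusted p = 7.80e-05 in limma) and 26.7% below mock (-0.45 ± 0.06, adjusted p = 0.000326). It was the only pair in which LPS+genipin fell below mock by the test. The change from LPS to LPS+genipin thus ran up in heart and down in liver, a difference of 1.33 ± 0.10 (heart minus liver, adjusted p = 1.06e-08 in limma). The LPS change differed by -0.39 ± 0.10 (heart minus liver, adjusted p = 0.00388).

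In liver, 3 of 3 members passed for LPS against mock, where 66.4% of genes did, 3 of 3 for LPS+genipin against LPS, where 54.0% did, and 2 of 3 for LPS+genipin against mock, where 61.0% did. The 7 monocyte and macrophage markers in liver summed to 16215 to 17379 in mock, 12374 to 12732 with LPS and 14923 to 15745 with LPS+genipin, with Cd163 at the floor with LPS. The 5 Kupffer cell markers summed to 19393 to 20972, 49801 to 54033 and 42766 to 45891, with 2 higher and 2 lower under LPS. None of the 5 was at the floor. The part of these lists in the liver values was not tested.

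**Figure D2:**
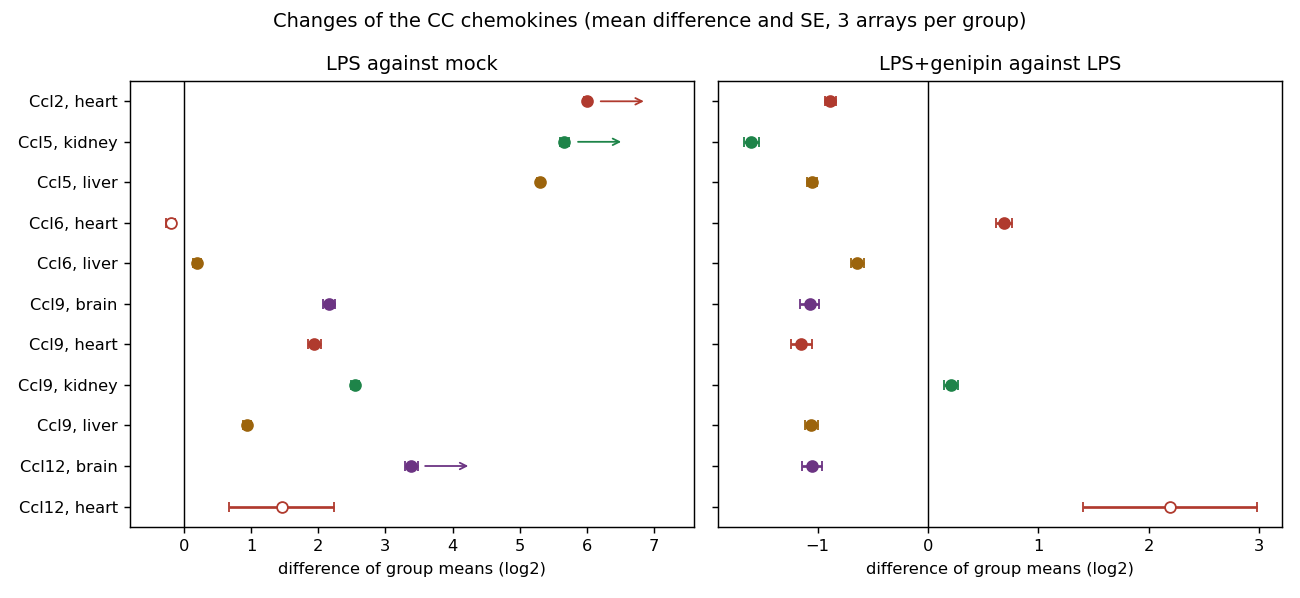
Difference of group means (log2) with its SE for the 11 gene and organ pairs, LPS minus mock on the left and LPS+genipin minus LPS on the right. Filled points passed an adjusted p of 0.05, open points did not, and arrows mark lower bounds; on the right 8 filled points lie below 0 and those of heart Ccl6 and kidney Ccl9 above it.

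**Figure D3:**
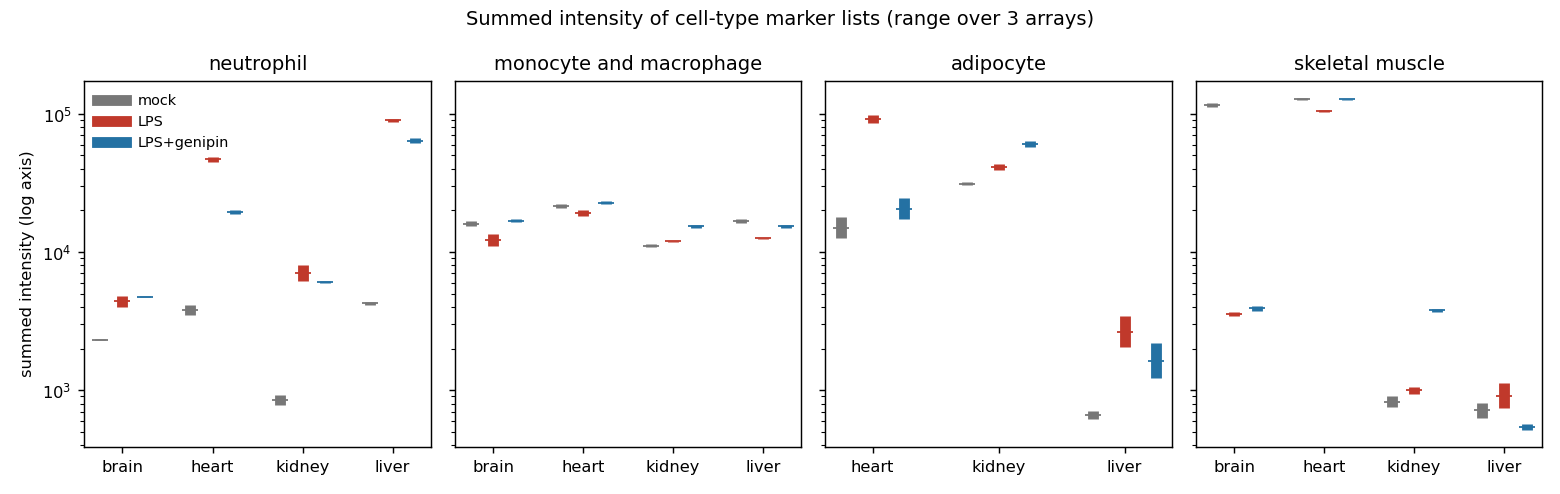
Summed intensity (log axis) of 4 marker lists by organ, each bar running from the lowest to the highest of 3 arrays, with mock in grey, LPS in red and LPS+genipin in blue. Neutrophil sums are higher with LPS in each organ, monocyte and macrophage sums stay between 10868 and 23283, LPS hearts stand out for adipocyte markers and mock brains for skeletal muscle markers.

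Other CC chemokines were taken from a list of 12, of which heart had values for 4 and each other organ for 3. With LPS, 2 were higher in brain, 1 in heart and 2 in kidney, and 1 was lower in kidney and 1 in liver. Of all genes, 16.4%, 18.2% and 25.2% were higher in brain, heart and kidney, and 39.2% and 37.1% were lower in kidney and liver. Ccl11 (eotaxin), an eosinophil attractant between Ccl7 and Ccl12 in the gene order, was higher by 1.74 ± 0.12 in heart (adjusted p = 1.12e-05 in limma) and by 1.85 ± 0.06 in kidney (adjusted p = 1.47e-07). With genipin it was lower in heart (-0.66 ± 0.12, adjusted p = 0.00321 in limma), while in kidney its change was -0.06 ± 0.06 (adjusted p = 0.451). Ccl17 and Ccl22, ligands of Ccr4, were higher in LPS brain by 1.25 ± 0.07 and 0.28 ± 0.08 and lower with LPS+genipin by -0.36 ± 0.07 and -0.63 ± 0.08. Ccl22 was also lower with LPS+genipin than with LPS in heart (-1.22 ± 0.24) and kidney (-1.06 ± 0.21). With LPS it was higher than mock in kidney (1.02 ± 0.21) and did not pass in heart (0.57 ± 0.24, adjusted p = 0.0788 in limma). Against mock, Ccl22 with LPS+genipin was lower in brain (-0.35 ± 0.08) and did not pass in heart (-0.65 ± 0.24) or kidney (-0.04 ± 0.21). Ccl24, another eosinophil attractant, fell in liver with LPS (-1.32 ± 0.07, adjusted p = 1.21e-06 in limma) and was lower again with LPS+genipin (-0.33 ± 0.07). Ccl25, the thymic and gut chemokine that acts on Ccr9, was higher with LPS+genipin than with LPS in heart (0.56 ± 0.07) and kidney (0.45 ± 0.06). In kidney it was lower with LPS than in mock (-0.46 ± 0.06), and LPS+genipin against mock did not pass (-0.01 ± 0.06, adjusted p = 0.957 in limma). In heart its LPS change was -0.02 ± 0.07 (adjusted p = 0.822 in limma), and LPS+genipin was above mock (0.54 ± 0.07). The list's median change with LPS was 1.02 in kidney, 0.63 in liver, 0.28 in brain and 0.27 in heart. In liver 0 of the 3 passed as higher.

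Of 11 CC chemokine receptors only Ccr8 had values. Its LPS change was 0.48 ± 0.42 in heart (adjusted p = 0.382 in limma), and it was higher in liver (0.87 ± 0.32, adjusted p = 0.043). Of 5 atypical receptors, which bind chemokines without classical signalling, 3 had values in at least 1 organ. Ackr1, which carries chemokines across venular endothelium, was higher with LPS in heart (5.02 ± 0.06), liver (2.92 ± 0.07) and brain (1.28 ± 0.10). It was lower with LPS+genipin than with LPS in each, by -2.35 ± 0.06, -0.64 ± 0.07 and -0.88 ± 0.10. Ccrl2, which binds chemerin and was named for its likeness to CC chemokine receptors, was higher with LPS in heart (1.74 ± 0.08), kidney (2.25 ± 0.04) and liver (2.26 ± 0.08). With LPS+genipin it was lower by -1.15 ± 0.08, -0.49 ± 0.04 and -1.73 ± 0.08. Ackr2, the scavenger of inflammatory CC chemokines, moved little in heart, at 0.35 ± 0.12 with LPS (adjusted p = 0.035 in limma) and -0.43 ± 0.12 with LPS+genipin against LPS.

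**Figure D4:**
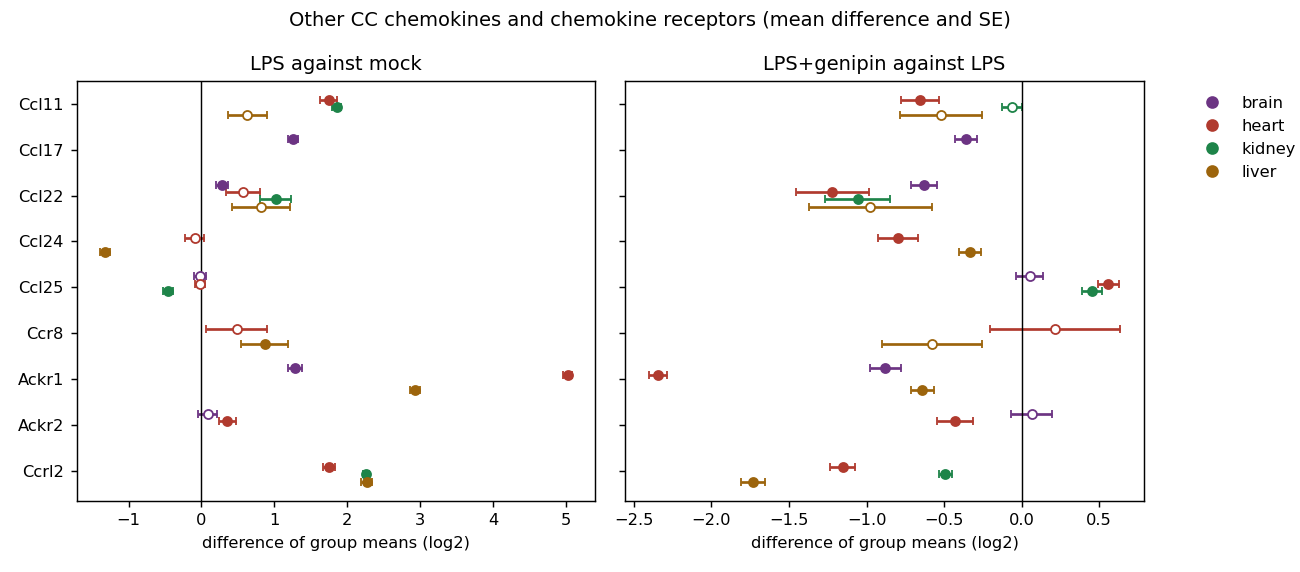
Difference of group means (log2) with its SE for other CC chemokines and chemokine receptors, LPS minus mock on the left and LPS+genipin minus LPS on the right, coloured by organ. Filled points passed an adjusted p of 0.05; Ackr1 and Ccrl2 lie to the right with LPS and to the left with genipin in every organ where they were measured.

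Upstream of the chemokine genes, the list of LPS recognition and signalling genes held 17 members, of which 14, 16, 15 and 16 had values in brain, heart, kidney and liver. With LPS, 4, 7, 9 and 8 of them were higher in brain, heart, kidney and liver, and 2 in heart and 1 in kidney were lower. With LPS+genipin against LPS, 2, 7, 5 and 7 were lower, and 1 in kidney and 4 in liver were higher. Of all genes, 13.8%, 19.9%, 22.6% and 24.5% were lower in that comparison in brain, heart, kidney and liver, 32.1% were higher in kidney and 29.5% in liver, and 16.4%, 18.2%, 25.2% and 29.3% were higher with LPS than in mock. Cd14, which hands LPS to the receptor, was higher with LPS by 5.48 ± 0.05 in kidney, 4.12 ± 0.08 in brain, 2.40 ± 0.08 in heart and at least 5.59 in liver, where the arrays with LPS were saturated. Myd88, the adaptor of the receptor, was higher with LPS by 1.25 ± 0.09, 2.14 ± 0.07, 2.23 ± 0.04 and 2.50 ± 0.07 in brain, heart, kidney and liver. It was lower with LPS+genipin against LPS in each, by -0.71 ± 0.09, -1.29 ± 0.07, -1.10 ± 0.04 and -0.61 ± 0.07. Tlr4 itself was lower with LPS in heart (-0.37 ± 0.12) and higher in kidney (0.53 ± 0.14).

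The transcription factor list had 17 members. With LPS, 7 of 11 measured were higher and 2 lower in brain, 12 of 13 higher in heart, 12 higher and 1 lower of 13 in kidney, and 11 higher and 2 lower of 13 in liver. The list's median change was 0.57, 1.38, 2.20 and 1.17, while the median over all genes was no further from 0 than -0.09. With LPS+genipin against LPS, 6 were lower and 1 higher in brain, 11 lower in heart, 12 lower in kidney, and 7 lower and 2 higher in liver, with medians of -0.41, -0.75, -1.09 and -0.22. Irf1, an interferon-induced factor, was higher with LPS by 2.07 ± 0.08, 2.47 ± 0.08, 3.73 ± 0.07 and 1.04 ± 0.12 in brain, heart, kidney and liver. These are transcript levels, and the activity of the factors was not measured.

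Of 8 genes that set the stability of chemokine mRNAs, 5 had values in every organ. Zfp36, encoding tristetraprolin, which promotes decay of AU-rich mRNAs, was higher with LPS by 2.53 ± 0.10, 1.96 ± 0.08, 1.75 ± 0.12 and 1.92 ± 0.12 in brain, heart, kidney and liver. It was lower with LPS+genipin than with LPS by -1.02 ± 0.10, -0.83 ± 0.08, -0.59 ± 0.12 and -0.48 ± 0.12. Its relative Zfp36l1 was higher with LPS in kidney (1.13 ± 0.09) and liver (0.93 ± 0.11) and lower with LPS+genipin in kidney (-0.79 ± 0.09). Of 12 proteases that cut chemokines, 6 had values in brain, heart and kidney and 5 in liver. Mmp14 was higher with LPS in heart (1.58 ± 0.09), kidney (1.35 ± 0.12) and liver (1.01 ± 0.08) and lower with LPS+genipin in heart (-0.83 ± 0.09). Mmp2 was lower in kidney with LPS (-0.41 ± 0.07) and higher with LPS+genipin against LPS (1.05 ± 0.07). Dpp4, which removes N-terminal dipeptides from Ccl5 and Ccl11 among others, was lower in liver with LPS (-0.85 ± 0.12, adjusted p = 0.000316 in limma).

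The genes whose changes came nearest to those of a member were sought for the members measured away from the floor in 2 or more organs. For Ccl9, over 8 values (both comparisons in 4 organs) and 5967 genes, the nearest were Cebpb, Il4ra and Fgl2, with root mean square differences of 0.53, 0.56 and 0.57 on the log2 scale. Cebpb, the C/EBP transcription factor, was higher with LPS by 2.20 ± 0.06 in kidney, 1.46 ± 0.05 in brain, 1.38 ± 0.05 in heart and 1.17 ± 0.07 in liver. With LPS+genipin against LPS, Cebpb was lower in brain (-0.57 ± 0.05), heart (-0.50 ± 0.05) and liver (-0.52 ± 0.07). Those changes were smaller than the -1.07, -1.15 and -1.06 of Ccl9 there. Cebpb was lower in kidney too (-0.33 ± 0.06, adjusted p = 0.00209 in limma), where Ccl9 was slightly higher. For Ccl6, over 4 values in heart and liver and 6843 genes, the nearest were Mms22l, Nlrp6 and Dnmbp, at 0.12, 0.12 and 0.13. From LPS to LPS+genipin, Mms22l changed by 0.91 ± 0.21 in heart and -0.69 ± 0.19 in liver. Each of these genes was picked by the same values, so its likeness to the member follows from the choice and is no test.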

How the data were processed

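Total RNA of mouse brain, heart, kidney and liver was labelled with Cy5 (5 µg per array) on 36 one-colour arrays, per the labels' protocols. The deposited values are intensities on a linear scale that the authors normalized within each organ. The submitters' processing notes name limma alone, without its version or what it did; the sources used here do not give the background correction or probe filter. Probes were named through the platform annotation and symbols updated through RefSeq (GRCm38.p6). Of 18183 probes, 3366 had no symbol. Where a gene had several probes, the one with the highest mean log2 value was taken. Here intensities below the 5th percentile were set to it before taking log2, and those of 60000 or more were treated as saturated. Group means were fitted with limma 3.58.1 in R 4.3.3 over the 9 arrays of an organ, and over all 36 arrays for differences between organs; tests were two-sided, and the script was tested on simulated data. The number of arrays limits the precision. Alternatives were other floors, probe rules, thresholds, filters, priors, a shift to the 75th percentile, replicate blocks and leaving out each array. Named genes were all members, from each list genes passing the test with the largest changes, their neighbours in the gene order where measured, and the 3 genes nearest a member. Tlr4 was chosen after its values were seen. Members and lists were chosen with earlier results of these data known. Figures used matplotlib 3.10.9, numpy 2.4.6 and pandas 2.3.3 in Python 3.11.15.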

Additional observations from a re-analysis of the deposited data

Results flagged for a closer look

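Every member measured in more than 1 organ had changes that differed among its organs in the F test over all 36 arrays (limma, adjusted over 10007 genes). For LPS against mock the adjusted p was 7.73e-12 for Ccl9 in 4 organs, 0.00239 for Ccl6 in heart and liver, 0.0028 for Ccl5 in kidney and liver and 0.0377 for Ccl12 in brain and heart. The Ccl5 value compares changes from mock groups at or near the floor in both organs, and the brain Ccl12 change is a bound. With 2 organs the F test is the same test as that of the pair. The Ccl12 F test p of 0.0265 became 0.0377 when adjusted over 10007 genes. Adjusted over the genes measured in both brain and heart it was 0.0571, which did not pass. For LPS+genipin against LPS the adjusted p of the F test was 5.13e-11 for Ccl9, 6.24e-09 for Ccl6, 7.91e-05 for Ccl5 and 0.00188 for Ccl12. With 72.5% and 69.9% of all genes passing the same tests, such differences are common on these arrays. The sizes of the differences, in the report, separate them. Ccl5 fell with genipin in both organs by unequal amounts, while Ccl6 moved up in heart and down in liver.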

How the results depend on the processing

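No direction of a called change reversed under any alternative. Of 690 alternative values of single changes, 661 stayed on the same side of the threshold, as did 357 of 368 values of differences among organs. Leaving out the dimmest genes removed Ccl9 from brain and left 1 member, Ccl12, called in each of the 3 brain comparisons. Requiring at least 2-fold left 1 member called for LPS+genipin against LPS in heart and in kidney, 2 for LPS+genipin against mock in heart, 1 for LPS against mock in liver and 1 for LPS+genipin against mock in liver. A threshold of 0.01 left 1 in kidney for LPS+genipin against LPS. Leaving out single arrays gave 2 to 4 called members for LPS against mock in heart, the 4 being without LPS replicate 2, and 1 to 2 for LPS+genipin against LPS in kidney. For LPS, the Ccl12 difference between brain and heart passed in the F test but not as adjusted for the pair. In the F test it lost the threshold in 8 of the leave-one-out fits, with adjusted p from 0.0504 to 0.0719. It also lost the threshold with a floor at the 10th percentile (0.0898) and with a trended prior (0.0678). Ccl6 in heart passed for LPS with that floor (0.0413), with all probes averaged (0.0484) and with the dimmest genes left out (0.0449). Ccl6 has 1 probe, and its change was -0.20 in each of these settings, so only the SE and the adjustment moved. Ccl6 in liver lost its LPS call with the trended prior (0.0528). Causes were not tested.

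Same-numbered arrays of 2 treatments had correlated deviations from -0.52 to 0.29 within an organ, over 0.1 in 8 of 36 pairs, so the numbers were not taken to pair the arrays. With a replicate block, 1 member instead of 2 was called for LPS+genipin against LPS in kidney (Ccl9, adjusted p = 0.0553), and no other call of a member changed. Between organs, LPS arrays of number 1 correlated at 0.38 to 0.52 and those of number 3 at 0.13 to 0.63. Both were over 0.1 in 6 of 6 organ pairs. LPS arrays of number 2 (0.04 to 0.42) and LPS+genipin arrays of each number (up to 0.40) were over 0.1 in 3 of 6. Mock arrays were over 0.1 in 1 or 2 of 6. With arrays of 1 treatment and number as a random block across organs (correlation 0.0914), 4 members still differed among organs in each comparison. Signals near the floor limit the mock values of Ccl2, kidney Ccl5 and brain Ccl12, whose rises are bounds, and of liver Ccl5 on 2 of 3 arrays.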
